A study of Rattus norvegicus with 10 samples.

Results

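The genes described here are 9 genes of NAD and adenosine metabolism, Cd38, Bst1, Nampt, Nmnat1, Nmnat3, Naprt, Nadk, Entpd1 and Nt5e, measured by RNA-seq in splenic M2 macrophages of rats. They were chosen by name, and all 9 were present among the 9003 genes of the expression table, Naprt under its older symbol Naprt1. The list was drawn up with the levels of these genes in the same libraries in view, so their values are given as a description. Where the text says that one of the 9 was called, this reports how the fit over all genes classed it, and it is not independent evidence that the gene differs.

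The 10 libraries came from macrophages sorted from the spleens of WKY/NCrj rats and fell into 4 groups. The Control group (n = 2) came from rats without nephritis, and the GN group (n = 2) from rats in which glomerulonephritis had been induced with the mouse monoclonal antibody TF78 against the glomerular basement membrane, without cell therapy. The EV+ (n = 3) and EV- (n = 3) groups came from nephritic rats that had also received human adipose-derived mesenchymal stem cells (ASCs), whose membranes carried the dye DiD. EV+ macrophages were DiD-positive, the sign of having taken up ASC membrane or extracellular vesicles (EVs), and EV- macrophages were the DiD-negative macrophages of such rats. EV+ and EV- libraries therefore shared both the nephritis and the ASC treatment, and no library came from nephritic rats given ASCs without the split by dye or from rats without nephritis given ASCs. The study used female rats for its nephritis model and gives their age as a range, while age is not in the labels of each library. It describes the RNA-seq replicates as biological. The sources used here do not say whether a library pooled animals. Nor do they say whether an EV+ and an EV- library of the same number came from the same rat. If replicates were not separate animals, the p-values below measure only the spread between libraries.

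NAD is a redox carrier that is also consumed as a substrate. CD38 and BST1 (CD157) are surface enzymes that split NAD into nicotinamide and ADP-ribose or its cyclic form, which act as calcium-mobilizing messengers. Nicotinamide is returned to NAD by NAMPT, which makes nicotinamide mononucleotide, and by the NMNAT enzymes, while NAPRT starts the same return from nicotinic acid and NADK phosphorylates NAD to NADP. On the cell surface, ENTPD1 (CD39) degrades ATP and ADP to AMP, and NT5E (CD73) turns AMP into adenosine, a nucleoside that restrains inflammation through its receptors. In macrophages, CD38 is known as an activation-associated NAD consumer, and the CD39 and CD73 pair as a route from extracellular ATP to adenosine.

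Cd38 and Bst1, related enzymes of one family, are neighbours on chromosome 14 in the RefSeq annotation of the rat assembly GRCr8. A promoter window was found for 6 of the 9 genes. The windows of these 2 genes are shown because their levels correlated over the 10 libraries (Pearson r = 0.799), though the order of EV+ and EV- differed. Whether the genes share regulation was not tested. Each line holds the 250 bases before the annotated start, on the minus strand, written 5′ to 3′, at chr14:71424506-71424755 for Cd38 and chr14:71482648-71482897 for Bst1. The reads themselves had been aligned to another build, rn6, so these positions are not those of the expression table.
Cd38: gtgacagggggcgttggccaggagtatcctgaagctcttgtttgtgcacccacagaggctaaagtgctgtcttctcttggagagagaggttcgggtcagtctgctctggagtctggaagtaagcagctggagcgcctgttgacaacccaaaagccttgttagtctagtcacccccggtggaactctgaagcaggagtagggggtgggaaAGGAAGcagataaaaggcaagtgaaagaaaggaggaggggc
Bst1: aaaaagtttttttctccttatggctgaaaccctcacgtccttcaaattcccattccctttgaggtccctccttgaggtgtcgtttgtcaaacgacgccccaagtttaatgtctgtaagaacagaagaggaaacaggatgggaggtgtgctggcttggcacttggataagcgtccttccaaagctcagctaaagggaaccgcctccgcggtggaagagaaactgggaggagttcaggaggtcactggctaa
Capitals mark the only match to any of 7 short motifs searched on both strands, an AGGAAG (the core bound by ETS factors) from -41 to -36 of Cd38, counted from the start. The Bst1 window held none of the 7. AGGAAG was found in 29.5% of 33469 windows of the same length. The other motifs without a match were TGANTCA (AP-1, in 6.34% of windows), TTCNNNGAA (GAS, 7.67%), TTGCNNAA (bound by C/EBP, 9.22%), the IRF motif (3.41%) and GGGCGG (GC box, 30.5%). The motif TATAAA of core promoters, in 12.9% of windows, had no match either. GC content was 54.4% in the Cd38 window and 49.6% in the Bst1 window, against a median of 51.2% over all windows.

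Values are in CPM, the reads of a gene relative to the total of its library, scaled by the authors with the trimmed mean of M values (TMM), a factor that corrects for libraries dominated by a few genes. Total reads per library ranged from 19270515 to 26617093, and a count of 3 reads corresponded to between 0.113 and 0.153 CPM, depending on the library. Each of the 9 genes was above that floor in every library. The lowest, Nmnat3, rested on at least 57 reads and the highest, Nadk, on at least 32255. Because transcript lengths were not used, levels are compared between libraries for 1 gene and not between genes. Differences are given on the log2(CPM + 1) scale with the standard error (SE) from limma, fitted over all 9003 genes and all 10 libraries. A gene is called where its Benjamini-Hochberg adjusted p was below 0.1.

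The sorted cells carried macrophage transcripts, though most of the 12 listed macrophage genes never exceeded 11.24 CPM. Csf1r, the receptor for macrophage colony-stimulating factor, ranged from 5800 to 8155 CPM, Cd68 from 1163 to 1466 CPM and Adgre1 (F4/80) from 1025 to 1491 CPM. Itgam ranged from 387.6 to 640.7 CPM and Hmox1 from 139.7 to 265.1 CPM. Cd163 and Mrc1, scavenger and mannose receptors widely used as M2 markers, reached at most 1.81 CPM in any library and were at 0 in some. The highest values of C1qa, C1qb, C1qc, Spic and Vcam1 were 8.59, 11.24, 8.96, 6.82 and 8.74 CPM. The summed level of 11 NK and T cell genes was 44.1 to 579.8 CPM in EV- and 16.0 to 34.0 CPM in the 7 other libraries, with the highest value in EV- replicate 1. The sum of 7 neutrophil genes was 549.7 to 555 CPM in Control and 609 to 744 CPM elsewhere, nearly all of it from Csf3r, while S100a8 was between 1.34 and 3.39 CPM and S100a9 between 9.34 and 19.1 CPM. Sums of 5 B cell genes overlapped between all groups. In bulk samples of this kind, fewer cells of a type and less RNA per cell cannot be told apart.

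Cd38 was lowest in Control rats and highest in EV+ macrophages. It was measured at 37.8 and 32.2 CPM in the 2 Control libraries. In the GN libraries it was 42.7 and 47.2 CPM. The EV+ libraries held 69.5, 57.2 and 59.9 CPM, and the EV- libraries 58.1, 51.6 and 46.9 CPM. The group means, from lowest to highest, were those of Control, GN, EV- and EV+, at 35.0 ± 3.91 (SD, n = 2), 45.0 ± 3.17 (SD, n = 2), 52.2 ± 5.62 (SD, n = 3) and 62.2 ± 6.47 CPM (SD, n = 3). Every nephritic library, with or without ASCs, lay above both Control libraries, whereas EV- overlapped with its neighbours in this order, GN and EV+.

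Against Control, Cd38 was 0.81 higher in EV+ (log2, SE 0.125), a ratio of the means of 1.78, and 0.56 higher in EV- (SE 0.125). The difference of GN from Control was 0.35 (SE 0.136). Against GN, the nephritic group without ASCs, Cd38 was 0.46 higher in EV+ (SE 0.125), where the ranges did not overlap, and 0.21 higher in EV- (SE 0.125), where they did. EV+ exceeded EV- by 0.25 (SE 0.111). The EV+ library was the higher one in 3 of the 3 same-numbered pairs, by 11.4, 5.59 and 12.99 CPM.

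Bst1 followed a different order among the ASC-treated cells. The Control libraries held 72.8 and 66.5 CPM, the GN libraries 72.1 and 77.5 CPM. They were 104, 98.6 and 80.1 CPM in EV+, and 106, 96.9 and 97.6 CPM in EV-. Thus Control and GN overlapped, EV+ and EV- overlapped, and all 6 libraries from ASC-treated rats lay above all 4 libraries from rats without ASCs. The means were 69.7 ± 4.44 CPM in Control (SD, n = 2), 74.8 ± 3.80 in GN (SD, n = 2), 94.1 ± 12.4 in EV+ (SD, n = 3) and 99.99 ± 4.78 in EV- (SD, n = 3).

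On the log2 scale Bst1 was 0.42 higher in EV+ than in Control (SE 0.110) and 0.52 higher in EV- than in Control (SE 0.110). GN differed from Control by 0.10 (SE 0.120), less than the SE. Relative to GN, Bst1 was 0.32 higher in EV+ (SE 0.110) and 0.41 higher in EV- (SE 0.110). The difference of EV+ from EV- was -0.09 (SE 0.0981), and the EV+ library was the higher one in 1 of 3 same-numbered pairs. Within EV+, replicate 3 was lowest at 80.1 CPM, only just above the highest GN library at 77.5 CPM.

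**Figure D1:**
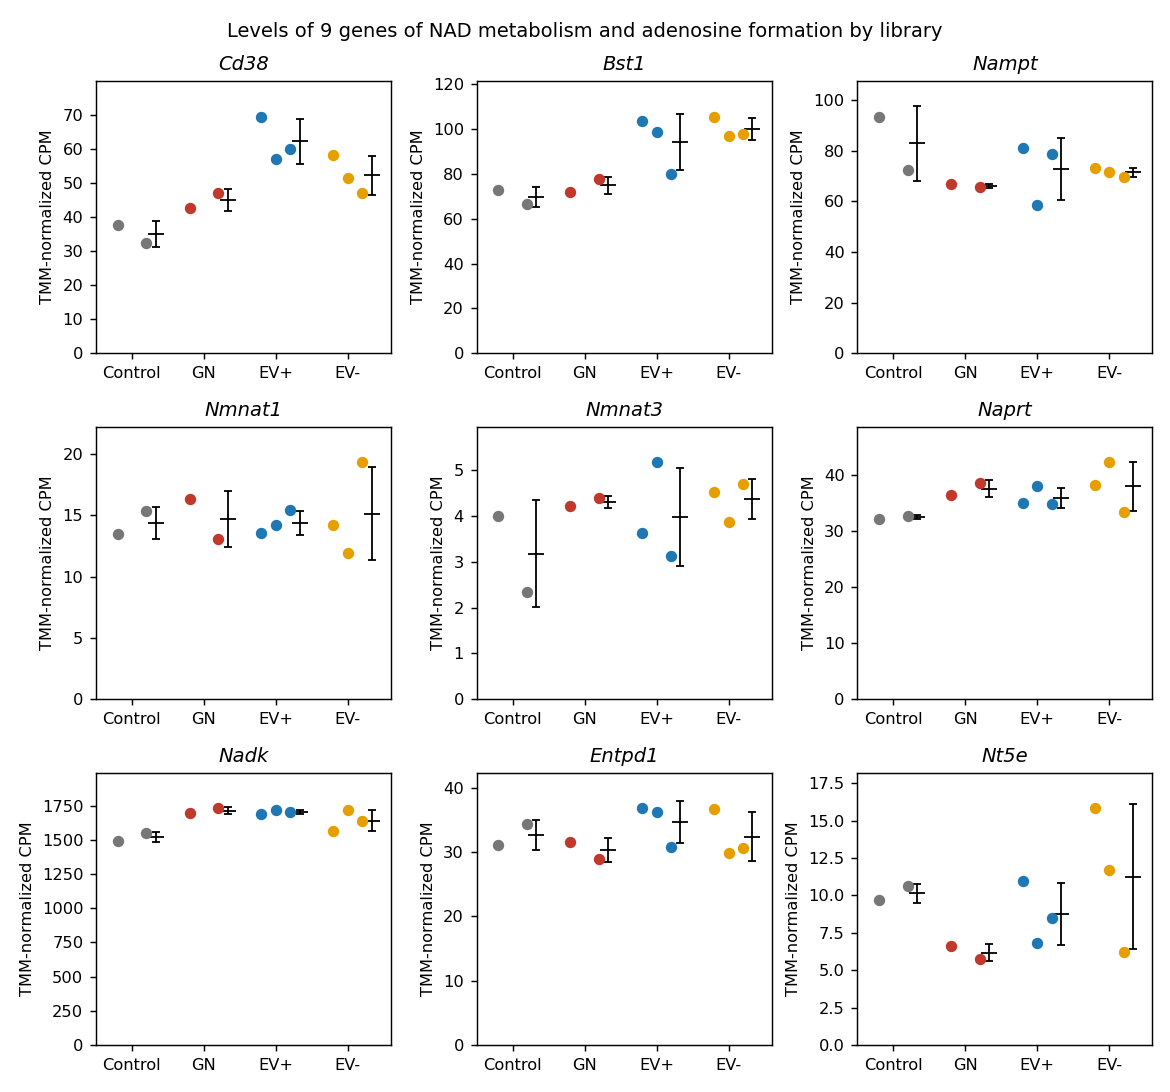
Level of each of the 9 genes in every library, in CPM on a linear axis with its own scale for each gene. Points are libraries, and the lines beside them give the group mean and SD for Control (n = 2), GN (n = 2), EV+ (n = 3) and EV- (n = 3). For Bst1 all 6 EV+ and EV- points lie above all Control and GN points, and for Cd38 both Control points, at 37.8 and 32.2 CPM, lie below all others.

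These 2 genes were the members called against Control, both higher, in EV+ (2 of 9) and in EV- (2 of 9). Over all 9003 genes the share called was 3.63% for EV+ against Control, with 1.82% higher, and 2.84% for EV- against Control, with 1.29% higher. Because the genes were chosen with these levels known, nothing is read from that count. No member was called by limma in GN against Control, EV+ against GN, EV- against GN or EV+ against EV-, where the shares over all genes were 1.75%, 0.122%, 0.378% and 0.0222%. At an unadjusted p under 0.05 the counts in those 4 comparisons were 2, 2, 2 and 1 members, beside 10.4%, 7.13%, 7.85% and 4.57% of all genes. The edgeR quasi-likelihood test on recovered reads also called 0 members in them, and DESeq2 called 1, Bst1 in EV- against GN. Limma with a block for the replicate number likewise called Bst1 in EV- against GN (1 of 9). The main fit did not pair EV+ with EV- libraries. Limma on those libraries alone with the replicate block called 0 members in EV+ against EV-, beside 49 of all 9003 genes.

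The calls against Control rest on 2 Control libraries. Without Control replicate 2 the members called fell from 2 to 1 in EV+, where Cd38 kept its call, and from 2 to 0 in EV-, where the differences from Control replicate 1 were 0.45 for Cd38 and 0.45 for Bst1. Over the 10 fits that each left out 1 library, Cd38 kept its call in EV+ in 10 and in EV- in 8, and Bst1 kept its call in EV+ in 4 and in EV- in 7. EV- replicate 1, the library with the highest NK and T cell sum (579.8 CPM), was also the highest EV- library for Cd38 (58.1 CPM) and Bst1 (106 CPM). In EV+ too, replicate 1 was the highest for both genes (69.5 and 104 CPM), with a sum of 34.0 CPM. The same held in Control (37.8 and 72.8 CPM, sum 19.6 CPM), whereas in GN replicate 2 was the higher. The part of NK and T cells in Cd38 and Bst1 was not tested. Leaving out EV- replicate 1 gave EV- differences from Control of 0.48 for Cd38 and 0.48 for Bst1, with 0 members called. Like Cd38, 4 marker sums were lower in both Control libraries than in the 8 others: neutrophil as above, macrophage (8834 and 9341 against 10150 to 11660 CPM), erythroid (1.19 and 1.61 against 3.28 to 7.26 CPM) and endothelial and stromal (159 and 163 against 166 to 213 CPM). Csf1r made up most of the macrophage sum, and Pecam1 nearly all of the endothelial and stromal sum. Csf1r, Adgre1 and Itgam were lower in both Control libraries, whereas the other listed macrophage genes overlapped. Cd68, at 1316 and 1373 CPM in Control, was 1245 and 1249 CPM in GN. Whether these sums reflect the share of a cell type was not tested. The part of the 4 sums in the Cd38 and Bst1 differences was not tested.

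The genes whose profiles were most like those of the pair were taken as the 5 of highest Pearson r of log2(CPM + 1) over the 10 libraries, among genes with a mean of at least 5 CPM. For Cd38 these were Sdcbp (a scaffold protein, r = 0.945), Acot9 (a mitochondrial acyl-CoA thioesterase, 0.941), Eno1 (the glycolytic enzyme enolase, 0.931), Sppl2a (an intramembrane protease, 0.917) and Chst1 (a sulfotransferase, 0.914). Sdcbp, Acot9, Eno1 and Sppl2a had the same order of group means as Cd38. Eno1, for example, went from 416 CPM in Control through 512 in GN and 532 in EV- to 561 in EV+. In Chst1 the mean of GN (8.9 CPM) was above that of EV- (8.6 CPM). For Bst1 they were Slc1a4 (a neutral amino acid transporter, 0.929), Men1 (menin, 0.889), Smu1 (a splicing factor, 0.884), Specc1l (a cytoskeletal protein, 0.876) and Csf2rb (the shared receptor chain for GM-CSF and IL-3, 0.875). All 5 of these had EV+ and EV- means above those of Control and GN, as Bst1 did. In Csf2rb the means were 122 CPM in Control, 138 in GN, 240.3 in EV+ and 235 in EV-. With group means removed, r with Bst1 was 0.18 for Csf2rb and 0.366 to 0.689 for the others. Cd38 and Bst1 themselves correlated at r = 0.799 over the 10 libraries. These r values are picked maxima or descriptions over points that share groups, and the libraries are not independent of the 4 conditions.

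Among the salvage genes none had EV+ and EV- both above GN and Control without overlap. Nampt, the rate-limiting enzyme of NAD recycling from nicotinamide, was 93.5 and 72.6 CPM in Control against 66.7 and 65.7 CPM in GN. In EV+ it was 80.9, 58.8 and 78.8 CPM, and in EV- 73.1, 71.6 and 69.7 CPM. Both GN libraries lay below both Control libraries, but the Control libraries themselves lay far apart and the EV+ range enclosed every GN and EV- value. GN differed from Control by -0.31 (SE 0.148), EV+ from Control by -0.19 (SE 0.136) and EV- from Control by -0.20 (SE 0.136).

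Nmnat1, the nuclear enzyme that completes NAD synthesis, stayed within 11.9 to 19.3 CPM, with group means from 14.4 ± 0.956 CPM in EV+ (SD, n = 3) to 15.2 ± 3.80 CPM in EV- (SD, n = 3). All 4 groups overlapped. Nmnat3, assigned to the mitochondrial form of the same step, reached 4.01 and 2.35 CPM in Control, then 4.22 and 4.41 CPM in GN. It was 3.63, 5.18 and 3.12 CPM in EV+ and 4.52, 3.87 and 4.71 CPM in EV-. Control replicate 2 was the lowest library, and the GN difference from Control of 0.38 (SE 0.264) was 0.09 without it.

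Naprt was 32.3 and 32.8 CPM in Control, below every other library. It was 36.5 and 38.7 CPM in GN, 35.0, 38.1 and 34.8 CPM in EV+, and 38.3, 42.4 and 33.5 CPM in EV-. The differences from Control were 0.20 in GN (SE 0.129), 0.14 in EV+ (SE 0.118) and 0.21 in EV- (SE 0.118), each under 2 SE.

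Nadk showed the smallest relative spread of the 9 genes, with a coefficient of variation of 5.09% over the 10 libraries. The Control values were 1496 and 1549 CPM, and the GN values 1697 and 1733 CPM. In EV+ it was 1690, 1716 and 1705 CPM, and in EV- 1567, 1718 and 1639 CPM. Both Control libraries were lower than all 8 others, and GN, EV+ and EV- overlapped with one another. GN exceeded Control by 0.17 (SE 0.0717) and EV+ exceeded Control by 0.16 (SE 0.0654), whereas EV+ and GN differed by -0.01 (SE 0.0654).

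Of the adenosine-forming pair, Entpd1 did not separate any groups. Its range was 31.0 to 34.3 CPM in Control, 29.0 to 31.6 CPM in GN, 30.8 to 36.8 CPM in EV+ and 29.8 to 36.7 CPM in EV-. The largest of its 6 differences was that of EV+ from GN, at 0.18 (SE 0.130). As for Cd38, the EV+ library was the higher one in 3 of 3 same-numbered pairs, here by 0.06, 6.43 and 0.29 CPM.

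Nt5e varied most, with a coefficient of variation of 34.0% over the 10 libraries. The Control values were 9.67 and 10.6 CPM, the GN values 6.59 and 5.76 CPM. In EV+ it was 10.9, 6.82 and 8.52 CPM, and in EV- 15.8, 11.7 and 6.23 CPM. Both GN libraries were below both Control libraries and below all EV+ libraries, and the EV- libraries spanned from within the GN range to above every other library. The differences were -0.64 for GN against Control (SE 0.315), 0.42 for EV+ against GN (SE 0.287), 0.69 for EV- against GN (SE 0.287) and -0.27 for EV+ against EV- (SE 0.257). The EV- libraries ranked alike in Nt5e and in the NK and T cell sum, at 579.8, 89.4 and 44.1 CPM for replicates 1, 2 and 3, and the part of such cells in Nt5e was not tested. Without EV- replicate 1, the difference of EV- from GN was 0.42.

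**Figure D2:**
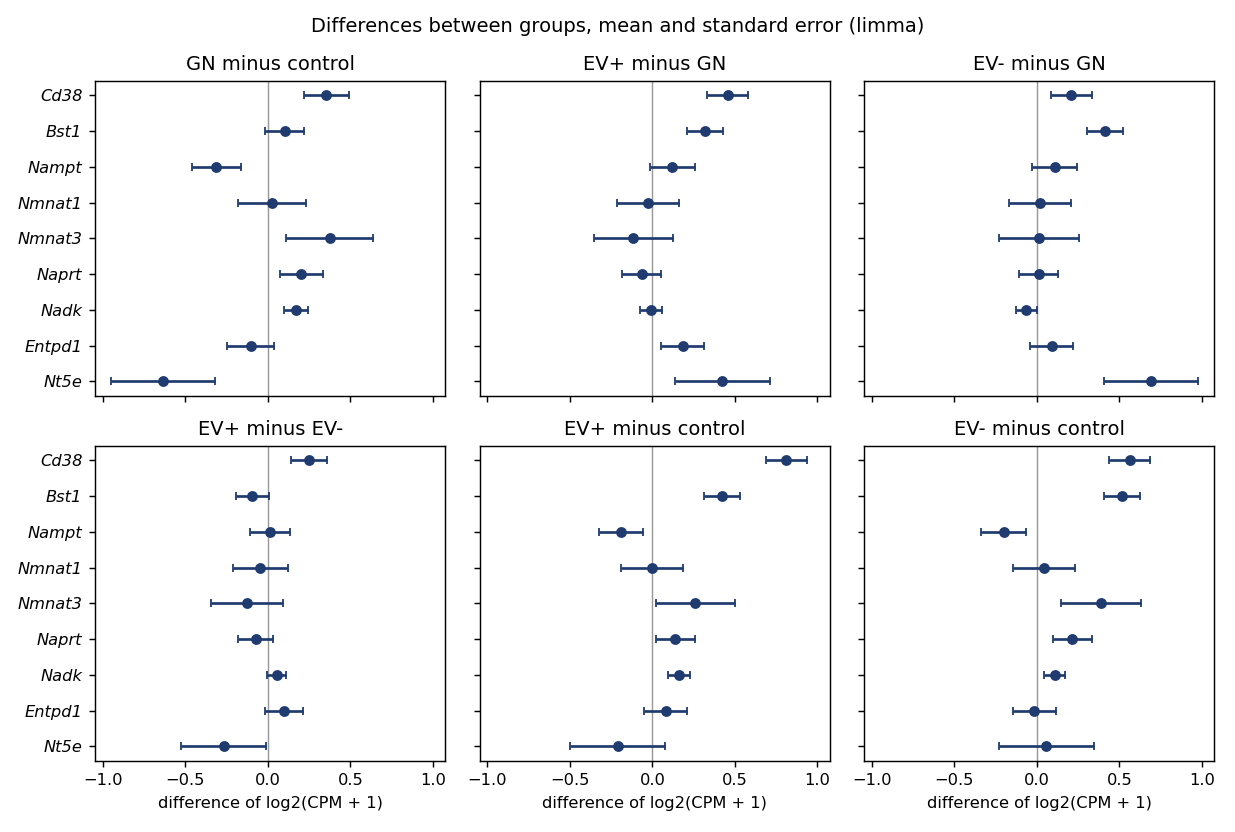
Difference of each gene on the log2(CPM + 1) scale in 6 comparisons, with points for the estimate and bars for 1 SE from limma over all 10 libraries. Cd38 is farthest to the right in EV+ against Control, at 0.81, and Nt5e has the widest bars, with an SE between 0.257 and 0.315.

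Counting libraries whose ranges did not overlap, GN against Control separated 4 members upward (Cd38, Nmnat3, Naprt and Nadk) and 2 downward (Nampt and Nt5e), beside 21.9% of all genes upward and 22.0% downward. EV+ against GN separated 3 members, Cd38, Bst1 and Nt5e, all higher, where 11.2% of all genes were higher without overlap. EV- against GN separated 2, Bst1 and Nampt, where 12.6% of all genes were. Against Control, the same 4 genes (Cd38, Bst1, Naprt and Nadk) were higher without overlap in EV+ and in EV-, beside 14.9% and 15.0% of all genes. These comparisons share their Control or GN libraries. Between EV+ and EV- no member was without overlap, beside 8.91% of all genes. The median difference of the 9 members was 0.10 for GN against Control, 0.12 for EV+ against GN, 0.09 for EV- against GN and -0.05 for EV+ against EV-, and the median of all genes was between -0.01 and 0.01 in each.

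Around the 9 genes, 102 other genes of NAD and adenosine metabolism had been listed by function, of which 65 were in the table. Their counts are given beside the shares over all genes, and nothing is read from them. In limma, 1 of 65 was called in GN against Control, 2 in EV+ against Control and 1 in EV- against Control, beside the 1.75%, 3.63% and 2.84% of all genes given above. None was called in EV+ against GN, EV- against GN or EV+ against EV-, beside 0.122%, 0.378% and 0.0222% of all genes. In these comparisons 3, 5 and 4 of the 65 had an unadjusted p under 0.05 in limma, beside 7.13%, 7.85% and 4.57% of all genes. The edgeR quasi-likelihood test called 0 in those 3 comparisons, and DESeq2 called 0, 1 and 0. The median difference of the 65 was between -0.04 and 0.01 in the 6 comparisons.

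P2ry2, a receptor for extracellular ATP and UTP, was the gene called in GN against Control. It was 49.8 and 44.5 CPM in Control, 89.5 and 67.8 CPM in GN, 63.4, 64.8 and 69.5 CPM in EV+, and 63.0, 54.1 and 54.2 CPM in EV-. All 8 nephritic libraries were above both Control libraries, and GN replicate 1 was the highest of the 10. P2ry2 rose by 0.72 in GN (SE 0.135, limma adjusted p = 0.0181) and by 0.48 in EV+ (SE 0.123, adjusted p = 0.0657) over Control, and its difference in EV- was 0.27 (adjusted p = 0.364). The GN call was lost without GN replicate 1, at 89.5 CPM, or Control replicate 2. The EV+ call was lost without Control replicate 1 or 2 or EV+ replicate 2 or 3. Limma without the intensity trend called P2ry2 in neither comparison.

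Art2b, a surface enzyme that uses NAD to modify proteins with ADP-ribose and is known from rat T cells, was lower in both ASC-treated groups. Its level was 12.1 and 12.2 CPM in Control, 7.53 and 5.80 CPM in GN, 7.70, 3.45 and 3.30 CPM in EV+, and 7.34, 3.67 and 3.15 CPM in EV-. It fell by 1.26 in EV+ (SE 0.327, adjusted p = 0.0674) and by 1.27 in EV- (adjusted p = 0.0738) against Control, and its difference in GN was -0.79 (adjusted p = 0.465). The edgeR quasi-likelihood test and limma without the intensity trend called it in neither comparison. Its call in EV- was lost without Control replicate 1 or 2, GN replicate 1 or 2, or EV- replicate 2 or 3, and its call in EV+ without Control replicate 1 or 2, GN replicate 1, or EV+ replicate 2 or 3. The NK and T cell sum was 44.1 to 579.8 CPM in EV- and 19.6 to 25.6 CPM in Control, with Art2b lower in EV-, while the EV+ sums of 34.0, 18.9 and 16.0 CPM overlapped with Control. Within EV+ and within EV- the 3 libraries ranked alike in Art2b and in that sum, and the part of such cells in Art2b was not tested.

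**Figure D3:**
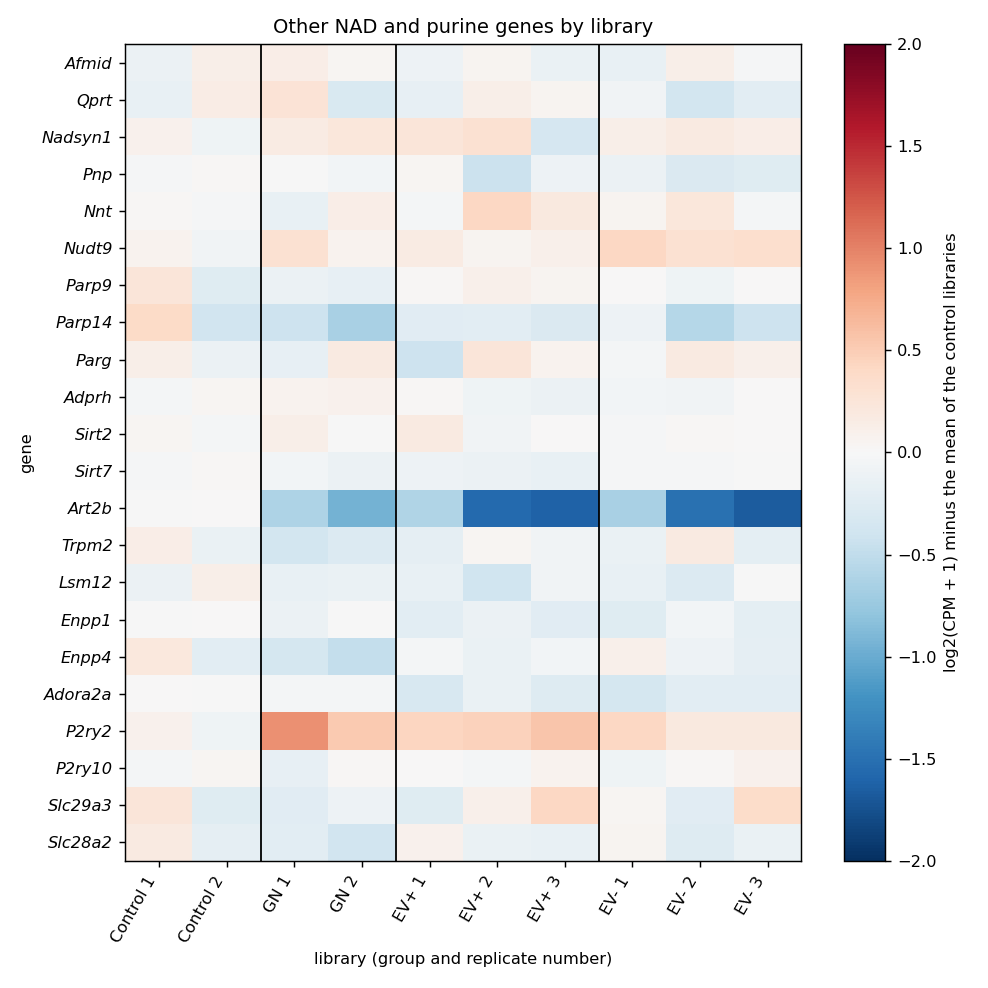
Level of 22 listed pathway genes named by rule, as log2(CPM + 1) minus the mean of the 2 Control libraries. Rows are genes ordered by function, columns are the 10 libraries by group, and the colour runs from lower than Control (blue) to higher (red). Art2b is blue in all 8 nephritic libraries, and P2ry2 is red in them, most in GN replicate 1 at 89.5 CPM.

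In the lists below, a count of 0 called says little, as limma called 0.0222% to 3.63% of all genes in the 6 comparisons. By function, 0 of 3 de novo synthesis genes, 0 of 3 further salvage genes and 0 of 9 genes of NAD kinase, transport and repair were called by limma in any comparison. Nudt9, which hydrolyses ADP-ribose, had the largest difference of the last group in EV- against Control, at 0.35 (SE 0.109, limma adjusted p = 0.15, DESeq2 adjusted p = 0.0753), with means of 39.8 ± 2.98 CPM in Control (SD, n = 2) and 51.0 ± 2.24 CPM in EV- (SD, n = 3). None of 9 PARP genes was called by limma over all 10 libraries. Parp14, an interferon-responsive ADP-ribosyltransferase, was 194 and 115 CPM in Control, against 112 and 95.4 CPM in GN, a difference of -0.53 (SE 0.193, limma adjusted p = 0.318, from 0.0416 to 0.879 when 1 library was left out, and DESeq2 adjusted p = 0.0981), and Control replicate 2, at 115 CPM, was closer to the GN libraries than to Control replicate 1. None of 4 genes that remove ADP-ribose, 6 sirtuins or 5 calcium release genes was called by limma or DESeq2. Trpm2, the ADP-ribose-gated calcium channel, had means of 192 ± 24.0 CPM in Control (SD, n = 2), 153 ± 6.60 in GN (SD, n = 2), 183 ± 14.3 in EV+ (SD, n = 3) and 186 ± 27.4 in EV- (SD, n = 3).

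Among 9 other ectonucleotidases none was called by limma or DESeq2. Enpp4, like Nt5e, had its lowest mean in GN, with 43.3 ± 9.35 CPM in Control (SD, n = 2), 32.0 ± 1.92 in GN (SD, n = 2), 40.6 ± 1.63 in EV+ (SD, n = 3) and 41.1 ± 4.23 in EV- (SD, n = 3), with a difference of GN from Control of -0.41 (SE 0.148, adjusted p = 0.311). Of 11 adenosine and nucleotide receptors, P2ry2 was the one called by limma. Adora2a, the adenosine receptor through which macrophages are restrained, was 1115 and 1113 CPM in Control, against 1080 and 1083 CPM in GN. It was 892, 1019 and 930.4 CPM in EV+ and 873, 967 and 962 CPM in EV-, so that all 6 libraries from ASC-treated rats were below all 4 others. Its differences from Control, -0.24 in EV+ (adjusted p = 0.14) and -0.26 in EV- (adjusted p = 0.121), did not pass the limma threshold, whereas DESeq2 gave adjusted p values of 0.0554 and 0.0305. None of 5 genes of adenosine removal was called by limma or DESeq2, and the adenosine transporter gene Slc28a2 had means between 236 and 291 CPM.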

How the data were processed

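RNA from sorted M2 macrophages of rat spleen was measured in 10 libraries of 4 groups, made with the SMART-Seq v4 kit, which does not mark strand, so overlapping genes on opposite strands cannot be told apart. According to the submitters' processing notes, the authors aligned reads with STAR 2.5.3 to rn6 and counted them per gene with HTSeq 0.6.0. The deposited signal is CPM after TMM scaling in edgeR, for 9003 genes that reached 1 CPM in at least 1 library. Each value was a whole number of reads times 1 factor per library (100% within 0.05 of a read), so reads were recovered for count tests, although the design foresaw log2 values as the main scale. Of the symbols, 18 had turned into dates and were left as they were.

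The tests used limma 3.58.1 (R 4.3.3) with an intensity trend on log2(CPM + 1), with all 10 libraries in 1 fit and Benjamini-Hochberg adjustment over 9003 genes, and calls at an adjusted p under 0.1. A count of 3 reads was taken as the floor, and it covers counting error only. Alternatives were a pseudocount of 0.1, no trend, a filter of 1 CPM in 2 libraries, other size factors, the edgeR 4.0.16 quasi-likelihood test and DESeq2 1.42.0 on recovered reads, a replicate block and leaving out each library. For EV+ against EV-, those libraries were also fitted alone with the replicate block. Same-numbered EV+ and EV- libraries deviated together, with correlations of residuals of 0.203, 0.295 and 0.122. Other numbers gave -0.229 to -0.0129. Residuals cancel out within a group, so these negative values follow in part from the positive ones and are not separate evidence. The main fit was unpaired, and the fits with a replicate block took the numbers to pair libraries. In the fit of all 10 libraries this block also joined same-numbered Control and GN libraries, which came from rats of different treatment. Their residual correlation was 0.0878. The labels do not say what same-numbered libraries share.

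The 9 genes and the pathway and marker lists were chosen with earlier results of these data known. Pathway genes were named where called in any comparison or where among the 2 of highest mean in their list. Promoter sequences are from RefSeq (GRCr8). All columns of the table were used.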

Additional observations from a re-analysis of the deposited data

How the results depend on the processing

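Of the 54 member differences, only those called could reverse a call: Cd38 and Bst1 in EV+ and in EV- against Control. These kept their sign in every setting. Of 387 values recomputed under other settings, 387 moved by less than the residual SD and 3 changed sign, and of 540 that left out a library 528 moved by less and 33 changed sign. Many of these values could not move. Leaving out a library of neither compared group keeps a difference the same, as do the fit without the trend and the other filter. The counts therefore overstate how stable the differences were. With the replicate block, 1 member (Bst1) was called in EV- against GN in place of 0, and the block changed no other call of a member or count of pathway genes. DESeq2 also called 1 member there. It called 2 pathway genes in GN against Control (1 by limma), 1 in EV- against GN (0), 3 in EV+ against Control (2) and 3 in EV- against Control (1). The edgeR quasi-likelihood test called 1 pathway gene in EV+ against Control (2 by limma) and 0 in EV- against Control (1). Limma without the intensity trend called 0 pathway genes in GN, EV+ and EV- against Control, 1 member (Cd38) in EV+ and 0 in EV-. Why the settings differ was not tested, and the cause was not tested for any library below.

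Leaving out 1 library at a time gave 0 to 1 pathway genes in GN against Control (0 without GN replicate 1; without Control replicate 2 the 1 called was not P2ry2), 0 to 2 in EV+ against Control (0 without Control replicate 1, Control replicate 2 or EV+ replicate 3) and 0 to 2 in EV- against Control (0 without Control replicate 1, GN replicate 1 or 2, or EV- replicate 2 or 3). Members called ranged from 1 to 2 in EV+ against Control (1 without Control replicate 1 or 2, GN replicate 1 or 2, or EV+ replicate 1 or 2) and from 0 to 2 in EV- against Control (0 without Control replicate 2 or EV- replicate 1). With 1 Control or GN library left, that library was assumed to vary like the other groups. Groups of 2 or 3 libraries limit the precision of every difference, and counting error weighs most on Nmnat3, with as few as 57 reads in a library.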
